A study of Mus musculus with 96 samples.

Results

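Lipopolysaccharide and CpG DNA were compared at 4, 6 and 8 h in mouse dendritic cells grown from bone marrow. Arrays labelled Lps at these hours were set against arrays labelled Cpg at the same hours. This gave 6 arrays against 6, with 2 arrays of each ligand at each time, or 12 of the 96 arrays of the series. Lps is taken here as lipopolysaccharide, a Toll-like receptor 4 (TLR4) ligand, and Cpg as CpG oligonucleotides, a TLR9 ligand, as known for this study, since its labels do not spell the names out. The labels name no genotype, strain, age or dose. They describe primary bone marrow dendritic cells, and do not state that replicate arrays stem from separate cultures. The p-values thus cover only the spread between these arrays, which may be technical. Further values come from 6 arrays each of Pic (taken as poly(I:C), a TLR3 ligand) and Pam (taken as a lipopeptide, a TLR2 ligand), from Lps and Cpg at earlier and later hours, and from 3 arrays of unstimulated cells, 1 each at 4, 6 and 8 h.

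TLR4 senses lipopolysaccharide at the cell surface together with CD14 and MD-2. It signals through the adaptor MyD88 at the surface and through the adaptor TRIF from endosomes. TLR9 lies in endosomes, binds unmethylated CpG DNA and signals through MyD88 without TRIF, while TLR3 uses TRIF without MyD88. MyD88 is known for driving NF-kB and MAP kinase targets such as inflammatory cytokines, and TRIF for driving interferon beta through IRF3.

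Values were intensities of 18858 probe sets with a floor of 20, so a gene at 20 was not distinguishable from background. Differences are Lps minus Cpg on log2(intensity + 1), a scale that understates the change of dim genes, and are given with the standard error. Calls needed both an adjusted p under 0.05 in limma (Benjamini-Hochberg, over all items tested) and a log2 difference of 1 or more in size. The 12 arrays were alike in scale, with medians from 48.75 to 51.5 for Lps and from 50.4 to 53.3 for Cpg, and Pearson's r between the 2 arrays of a ligand and hour was 0.9971 to 0.998 across probe sets, which are not independent replicates. Lps arrays lay in plate rows A and B and columns 4 to 6, and Cpg arrays in rows C and D and columns 10 to 12, so place on the plate cannot be told apart from ligand. All 11 dendritic cell markers had mean intensities above the floor. Their sum ran from 27435 to 29007 with Lps, from 27473 to 30371 with Cpg and from 29324 to 31701 in unstimulated cells. The largest mean was that of Cd74, 7392 with Lps and 7411 with Cpg. Flt3 lay near the floor, at 24.9 and 25.1, and Zbtb46 was dim, at 78.5 and 71.2. Macrophage markers were bright on the same arrays, with Lyz2 at 8783 and 8885, so these sums do not settle the cell type.

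Lps and Cpg differed 2-fold or more in few genes. Of 9808 items tested (genes, and probe sets without a gene name), 35 were called higher with Lps (0.357%) and 14 lower (0.143%), or 49 in all (0.5%). Of these, 30 higher and 12 lower items carried a single gene symbol. The 6 Lps arrays lay wholly apart from the 6 Cpg arrays for 32 of the 35 and 8 of the 14, where 6.81% of all items lay apart (3.13% with Lps above and 3.68% with Lps below). Small differences were common: 1325 items were higher (13.5%) and 1882 lower (19.2%) at adjusted p under 0.05 with no limit on size. Together these were 3207 items (32.7%). Centring the arrays on their medians turned that split to 1752 and 1319, and it stood at 1434 and 1669 after quantile normalization. The median difference over all items was -0.03. Counts of gene list members given below at adjusted p under 0.05 are to be set beside the shares of 13.5% higher and 19.2% lower.

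**Figure D1:**
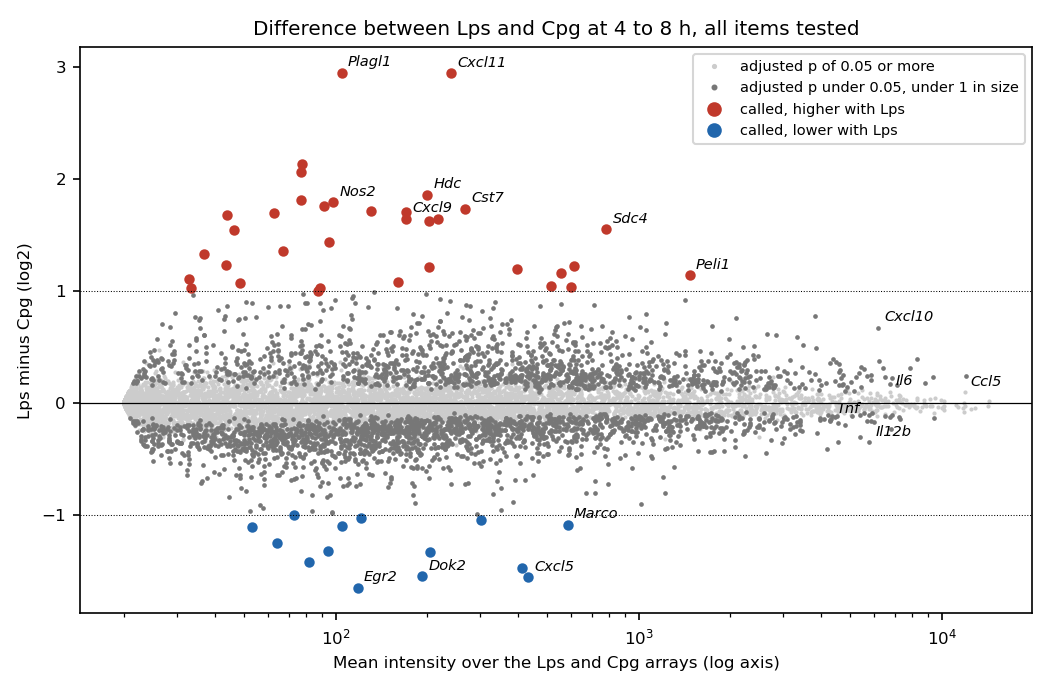
Difference between Lps and Cpg at 4 to 8 h (vertical axis, log2) against mean intensity over the 12 arrays (horizontal log axis), 1 point per item. The 35 items called higher with Lps are red and the 14 called lower are blue, dotted lines mark a difference of 1 either way, and the cytokine genes Il6, Tnf and Il12b lie close to 0.

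The genes highest with Lps over Cpg were led by a transcription factor and a chemokine. Plagl1, a zinc-finger transcription factor gene known for parental imprinting, had 341.5 and 287 on the Lps arrays at 4 h, 183 and 177.5 at 6 h, and 87.3 and 62.4 at 8 h, against 20 on all 6 Cpg arrays and all 3 unstimulated arrays. Among these 15 arrays it was above the floor with Lps alone, at an intensity at least 8.05-fold that of Cpg (fitted difference 2.95 ± 0.27, adjusted p = 2.84e-05 in limma). Cxcl11, a chemokine gene induced by interferon whose product binds CXCR3, had 391.5 and 406.5 at 4 h, 539 and 534 at 6 h, and 354 and 321.5 at 8 h of Lps. On the Cpg arrays it had 44.6 and 42.6 at 4 h, 92.7 and 81.5 at 6 h, and 48.2 and 32.6 at 8 h. The lowest Lps array lay above the highest Cpg array, and the difference was 2.94 ± 0.11 (adjusted p = 5.11e-08 in limma). Unstimulated cells were at the floor, and a second probe set of Cxcl11 was at the floor on all 12 arrays.

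Cxcl9, another interferon-induced CXCR3 ligand gene, was also higher with Lps. It ranged from 208 to 293 with a median of 267 on the Lps arrays, against 64.9 to 99.3 with a median of 87.5 on the Cpg arrays, without overlap (1.64 ± 0.12, adjusted p = 9.53e-06 in limma). The third gene of this family, Cxcl10, ranged from 5972 to 8738 with Lps and from 2985 to 6479 with Cpg, and its difference of 0.67 ± 0.09 was not called (adjusted p = 0.000328, interval 0.47 to 0.87). Its arrays overlapped.

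The promoter of Cxcl9 is shown because it was the only one among genes higher with Lps to hold a match to the NF-kB motif searched. RefSeq gives it on GRCm38.p6 at chr5:92328030-92328329, minus strand, from 250 bases before to 50 after the start of the gene. Capitals mark the NF-kB match, which begins at position -130 from the start site and lies on the reverse strand, and an AP-1 match at position 32.
Cxcl9: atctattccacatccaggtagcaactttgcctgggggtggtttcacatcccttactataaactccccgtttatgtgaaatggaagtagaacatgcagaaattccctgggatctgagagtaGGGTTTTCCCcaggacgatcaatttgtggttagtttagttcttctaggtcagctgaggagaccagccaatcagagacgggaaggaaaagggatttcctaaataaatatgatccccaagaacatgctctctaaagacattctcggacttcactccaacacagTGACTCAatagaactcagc

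Promoters were searched on both strands for the core of the element bound by interferon factors (ISRE, written GAAA, any 2 bases, GAAA), for an NF-kB motif (GGGAA, any 3 bases, CC) and for the AP-1 motif TGANTCA. No matches overlapped in the promoters shown. Of the 30 genes higher with Lps, 21 had a promoter in the RefSeq table, with 25 promoters in all. None held the ISRE core, 1 (4%) the NF-kB motif and 2 (8%) the AP-1 motif. Among the 7661 promoters of all named genes tested the shares were 3.35%, 7.05% and 5.73%. Among all 32851 mouse promoters of that length they were 3.44%, 5.78% and 7.81%. Cxcl11, Nos2, Ereg and, among the lower genes, Cxcl5 had no promoter there and were not searched. Of the 12 genes lower with Lps, 7 had a promoter, 14 in all, of which 0, 2 (14.3%) and 1 (7.14%) held these motifs. A match describes letters in this window and not a bound site.

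Enzymes that make small mediators formed a further part of the genes higher with Lps. Hdc, the enzyme gene of histamine synthesis, had 257 and 252 at 4 h, 335 and 332 at 6 h, and 328 and 378 at 8 h of Lps, against 62.5 and 53.2, 109.9 and 91.3, and 113 and 99.2 at the same hours of Cpg (1.86 ± 0.08, adjusted p = 2.07e-07 in limma). Its second probe set was also called, at 2.08. Nos2, the inducible nitric oxide synthase gene, ranged from 80.7 to 209 with a median of 177 with Lps, against 24 to 61.1 with a median of 43 with Cpg (1.79 ± 0.13, adjusted p = 8.17e-06). Unstimulated cells were at the floor for both genes, and neither had overlapping arrays. Of 14 measured genes for prostaglandin, nitric oxide and itaconate synthesis and related enzymes, 6 were higher at adjusted p under 0.05 and 0 lower, with a median difference of 0.11. The other 4 higher ones were Ch25h at 0.75, the prostaglandin E synthase gene Ptges at 0.32, Ptgs2 at 0.29 and Acod1 at 0.18, none of them called.

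Hdc is also a marker of mast cells and basophils, for which the 4 of 8 annotated markers seen above the floor anywhere in the series summed to 322 to 450 on Lps arrays, 125 to 182 on Cpg arrays and 86.1 to 89.5 on unstimulated arrays. The 6 markers Cpa3, Fcer1a, Kit, Mcpt8, Ms4a2 and Tpsb2 were at the floor on all 12 arrays, and Hdc alone ran from 252 to 378 on the Lps arrays, 53.2 to 113 on the Cpg arrays and 20 on the unstimulated arrays.

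Tnc, Plod2, Ereg and Ptch1 were among the largest differences and higher with Lps. Tnc, which encodes the matrix glycoprotein tenascin-C, ranged from 52 to 82.2 with Lps, while 5 of the 6 Cpg arrays were at the floor and the other at 20.9 (1.68 ± 0.07, adjusted p = 1.97e-07 in limma). Plod2, a lysyl hydroxylase gene for collagen crosslinks, ranged from 77 to 205 with Lps, against 26.8 to 38.7 with Cpg (1.81 ± 0.12, adjusted p = 4.73e-06), with a second probe set at 0.87, not called. Ereg, whose product epiregulin is a ligand of the EGF receptor, ranged from 75.5 to 127 with Lps, against 20.6 to 38 with Cpg (1.70 ± 0.07, adjusted p = 1.97e-07). Tnc, Plod2 and Ereg were at the floor in unstimulated cells. Ptch1, the Hedgehog receptor gene, ranged from 89.2 to 226 with Lps and from 31.8 to 53.8 with Cpg (1.76 ± 0.12, adjusted p = 6.62e-06). Unstimulated cells had 47.6 to 52.8 of Ptch1, within the range of the Cpg arrays.

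In the list of 18 measured matrix, protease and growth factor genes, 6 were higher and 4 lower at adjusted p under 0.05. Their median was 0.05, and of all items 13.5% were higher and 19.2% lower. Next to Ereg, the higher ones were Hbegf at 0.97, Edn1 at 0.74, Timp1 at 0.63, Mmp13 at 0.49 and Inhba at 0.23. The lower ones were Igf1 at -0.47, Pdgfb at -0.43, Mmp9 at -0.29 and Plaur at -0.26. Only Ereg was called.

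Among the remaining leading genes, Cst7, which encodes cystatin F, an inhibitor of lysosomal cathepsins, stood well above unstimulated cells with both ligands. It ranged from 348 to 448 with a median of 428 with Lps, against 106 to 143 with a median of 124 with Cpg, and 24.5 to 31.2 in unstimulated cells (1.73 ± 0.06, adjusted p = 3.65e-08 in limma). Atm, the gene of a kinase of the DNA damage response, ranged from 71.6 to 172.5 with Lps, against 24.8 to 31.3 with Cpg (2.06 ± 0.19, adjusted p = 2.84e-05). Unstimulated cells had 48.6 to 54.2 of Atm, above every Cpg array and below every Lps array. Rnf225, a RING-finger gene, ranged from 85.1 to 177 with Lps, against 20 to 40.3 with Cpg (2.13 ± 0.13, adjusted p = 1.85e-06). Rgcc, a cell cycle regulator gene known from the response to complement, ranged from 65.9 to 417 with Lps and from 35.2 to 65.4 with Cpg (1.71 ± 0.25, adjusted p = 0.000516), so that its groups lay only just apart.

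**Figure D2:**
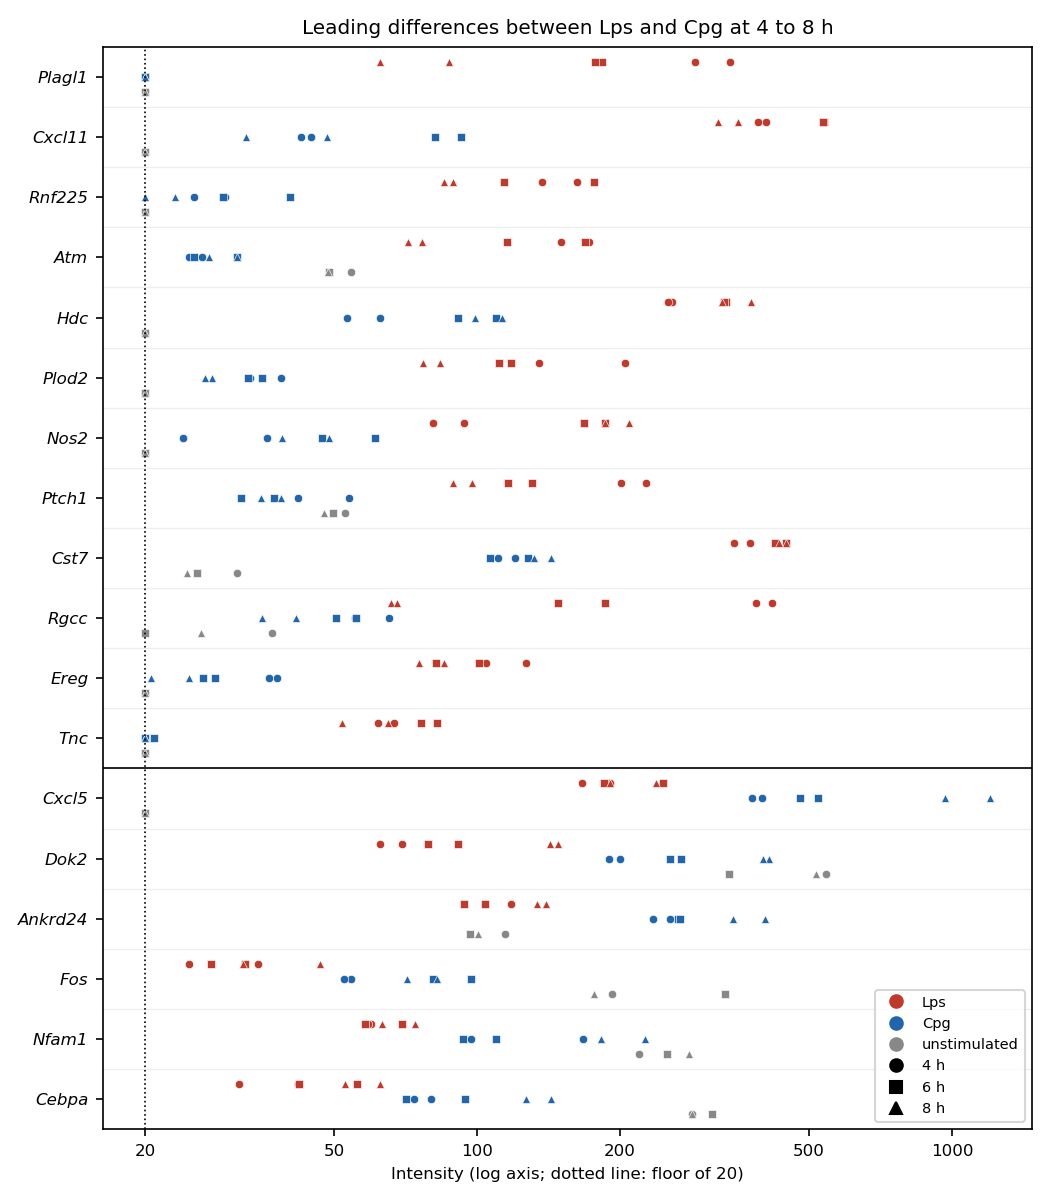
Intensity (log axis) on each array of the 12 genes with the largest positive and the 6 with negative called differences whose Lps and Cpg arrays do not overlap. Each gene has 3 lines of points, drawn from top to bottom for Lps (red), Cpg (blue) and unstimulated cells (grey), the symbol gives the hour, and the dotted line is the floor of 20, where all 6 Cpg arrays of Plagl1 lie.

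Further called genes are named here after their values were seen. Sdc4, which encodes the heparan sulfate proteoglycan syndecan-4, ranged from 694 to 1756 with Lps and from 275 to 547 with Cpg (1.55 ± 0.06, and 0.82 without a call on a second probe set). Peli1, a ubiquitin ligase gene of Toll-like receptor signalling, ranged from 1390 to 2750 with Lps and from 582 to 1151 with Cpg (1.14 ± 0.05, and 1.17 on a second probe set). The LIM homeobox gene Lhx2 (1.63), the CD30 ligand gene Tnfsf8 (1.64), the enkephalin precursor gene Penk (1.44) and the kynureninase gene Kynu (1.33) were also higher. Thbs4, a thrombospondin gene, was at the floor on all 6 Cpg arrays and from 31.1 to 64 with Lps, at least 2.21-fold. Hopx, a homeodomain-only protein gene, ranged from 748 to 933 with Lps, 321 to 401 with Cpg and 767 to 1026 in unstimulated cells, so here the Cpg arrays stood apart below both others (1.22 ± 0.04).

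The genes lower with Lps than with Cpg were led, among those without overlap, by a neutrophil chemokine. Cxcl5, whose product attracts neutrophils through CXCR2, had 167 and 190.5 at 4 h, 185 and 246 at 6 h, and 238 and 190.3 at 8 h of Lps. On the Cpg arrays it had 379 and 398.5 at 4 h, 522 and 479.5 at 6 h, and 968 and 1202 at 8 h, and unstimulated cells were at the floor. The difference was -1.56 ± 0.19 (adjusted p = 0.000163 in limma). It stood at -1.12, -1.23 and -2.34 at the 3 hours, a change with time that did not pass the test (adjusted p = 0.0808).

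Of 18 measured chemokine genes, 5 were higher and 4 lower at adjusted p under 0.05 (all items: 13.5% and 19.2%). Their median was -0.02. Ccl12, at -0.99, was just under the size for a call, and Cxcl16 at -0.27 and Ccl24 at -0.20 were lower by less. Ccl7 at 0.35 and Ccl4 at 0.16 were higher. The related neutrophil chemokine gene Cxcl1 ranged from 1687 to 2232 with Lps and from 1763 to 2222 with Cpg, with a difference of -0.02 and an interval from -0.11 to 0.07.

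Dok2, Nfam1, Cebpa and Ankrd24 were also lower with Lps without overlap between the ligands. Dok2, which encodes an adaptor that restrains tyrosine kinase signalling, ranged from 62.5 to 148 with Lps, against 189.7 to 412 with Cpg and 339 to 542 in unstimulated cells (-1.55 ± 0.05, adjusted p = 3.65e-08 in limma). Nfam1, the gene of a receptor that activates NFAT, ranged from 58.1 to 74.1 with Lps and from 93.5 to 225 with Cpg (-1.10 ± 0.16, adjusted p = 0.000553), with a second probe set at -0.84, not called. It had 219.8 to 280.0 in unstimulated cells. Cebpa, a transcription factor gene of myeloid differentiation, ranged from 31.5 to 62.4 with Lps and from 70.9 to 143 with Cpg, and from 283 to 312 in unstimulated cells. Its difference lay at the threshold, with an interval from -1.26 to -0.75 (adjusted p = 0.000127), and 13 of 27 alternative settings lost the call, with values from -1.14 to -0.82. Ankrd24, an ankyrin repeat gene, ranged from 94.1 to 139 with Lps, 235 to 405 with Cpg and 96.6 to 115 in unstimulated cells (-1.34 ± 0.07, adjusted p = 4.3e-07), but 2 further probe sets stood at -0.59 and -0.62 and were not called.

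Immediate-early genes differed in both directions. Egr2, an early growth response transcription factor gene, had 20 and 20.8 at 4 h, 50.4 and 46 at 6 h, and 118.5 and 99.8 at 8 h of Lps, against 77.6 and 84.9, 133 and 146, and 299.8 and 322 at these hours of Cpg. Within each hour both Lps arrays lay below both Cpg arrays, although the groups overlapped across hours, and the difference was -1.65 ± 0.08 (adjusted p = 4.1e-07 in limma). A second probe set was called at -1.42. Fos, an AP-1 subunit gene, ranged from 24.8 to 46.8 with Lps, 52.4 to 97 with Cpg and 176 to 333 in unstimulated cells (-1.11 ± 0.14, adjusted p = 0.000199). Without the 6 h arrays the difference of Fos was -0.85 and no longer called. Of 23 measured members of the list, 7 were higher and 8 lower at adjusted p under 0.05, with a median of 0.00. The other lower ones were Dusp6, Myc, Ier3, Atf3, Jun and Dusp1, from -0.44 to -0.15, and the higher ones were Klf4, Dusp16, Jund, Maff, Dusp2, Junb and Klf6, from 0.76 to 0.19.

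Marco, a scavenger receptor gene for bacteria and particles, was far above unstimulated cells with both ligands and lower with Lps than with Cpg. It had 207.5 and 235 at 4 h, 386 and 357 at 6 h, and 509.7 and 602 at 8 h of Lps, against 532 and 560.4, 783 and 876, and 981 and 973 at these hours of Cpg, and 20 to 38.3 in unstimulated cells. Within each hour the Lps arrays lay below the Cpg arrays, with overlap across hours, and the difference was -1.09 ± 0.08 (adjusted p = 9e-06 in limma). Without the 4 h arrays it was -0.99 and not called. Of 17 measured scavenger, lectin and Fc receptor genes, 3 were higher and 8 lower at adjusted p under 0.05 (median -0.12), the lower ones including Clec4a2 at -0.58, the endothelial and macrophage scavenger gene Stab1 at -0.54 and the inhibitory Fc receptor gene Fcgr2b at -0.41.

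The promoter of Marco, of the minus strand at chr1:120504975-120505274 on GRCm38.p6 in RefSeq, is shown as one of the 2 with an NF-kB match among genes lower with Lps. Capitals mark the match, on the reverse strand, which begins at position -29 from the start site.
Marco: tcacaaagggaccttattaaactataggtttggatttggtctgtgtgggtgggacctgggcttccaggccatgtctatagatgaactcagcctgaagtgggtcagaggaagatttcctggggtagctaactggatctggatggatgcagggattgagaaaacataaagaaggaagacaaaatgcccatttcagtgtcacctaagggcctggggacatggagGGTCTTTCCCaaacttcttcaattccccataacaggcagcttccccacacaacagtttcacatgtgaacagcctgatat

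Among markers of other cells, the sums for macrophages and neutrophils were lower on Lps than on Cpg arrays, without overlap. Those for plasmacytoid dendritic cells, B cells, and T and NK cells overlapped between the ligands. Macrophage markers, 10 of 11 above the floor with Cd163 at the floor, summed to 18473 to 19103 on Lps arrays, 19397 to 20913 on Cpg arrays and 21887 to 28546 on unstimulated arrays, and 2 were higher and 6 lower at adjusted p under 0.05 (median -0.22). Neutrophil markers, all 10 above the floor, summed to 6749 to 7786 on Lps arrays, 7982 to 8658 on Cpg arrays and 9162 to 9498 on unstimulated arrays, with 0 higher and 5 lower (median -0.19). Plasmacytoid dendritic cell markers summed to 1958 to 2361 with Lps, 1622 to 1994 with Cpg and 1039 to 1365 in unstimulated cells, with Cox6a2 and Klk1 at the floor and Tcf4 and Irf8 higher with Lps. Of B cell markers, 5 of 7 (Cd79a, Ebf1, Ms4a1, Pax5 and Vpreb3) were at the floor on all 12 arrays, as were Cd3g, Gzma, Klrd1 and Ncr1 of 7 for T and NK cells and 4 of 5 erythroid markers. The summed B cell markers ran from 57.1 to 69.3 with Lps, 55.8 to 86.7 with Cpg and 90.1 to 108 in unstimulated cells, and those of T and NK cells from 91.8 to 148 with Lps, 80 to 137 with Cpg and 80 to 80.3 in unstimulated cells. The part of these other cells in the differences was not tested, and in bulk samples fewer cells of a type cannot be told apart from less RNA per cell.

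The main inflammatory cytokines were close with both ligands. Il6 ranged from 6584 to 7582 with a median of 6904 with Lps, against 5930 to 7002 with a median of 6681 with Cpg and 20 to 30.4 in unstimulated cells. Its difference was 0.10, with an interval from 0.02 to 0.18, and did not pass the test (adjusted p = 0.0653 in limma). Tnf was lower by a small amount, from 2939 to 4898 with Lps and from 3183 to 5286 with Cpg (-0.15, interval -0.24 to -0.07, adjusted p = 0.0122). Il1b differed by 0.04, with an interval from -0.03 to 0.11. Il12b, which encodes the p40 chain of interleukin-12 and interleukin-23, ranged from 4345 to 5938 with Lps and from 5402 to 7230 with Cpg (-0.35, interval -0.46 to -0.24, adjusted p = 0.000403), while the interleukin-23 subunit gene Il23a stood at 0.61 and the interleukin-12 subunit gene Il12a at 0.17. These intervals exclude a 2-fold difference on the scale used.

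Of 17 measured cytokine genes, 4 were higher (Il15 at 0.77, Csf1 at 0.65, Il23a and Tnfsf9 at 0.42) and 3 lower (Il12b, Ebi3 at -0.19 and Tnf) at adjusted p under 0.05, and none was called. Of all items 13.5% were higher and 19.2% lower. Il10 was at the floor on 4 of 6 arrays with either ligand. Among 19 measured NF-kB pathway genes, 10 were higher and 1 lower, with a median of 0.15, the largest being Nfkb2 at 0.54 and Cflar, an apoptosis regulator gene, at 0.44. The lower one was Nfkbiz, at -0.39.

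Most interferon-stimulated genes measured were a little higher with Lps at 4 to 8 h. Of 27 measured antiviral interferon-stimulated genes, 21 were higher at adjusted p under 0.05 and 0 lower, with differences over the list from 0.09 to 0.77 and a median of 0.24. None reached the size for a call. The largest were Oasl1 at 0.77, Isg20, an exonuclease gene, at 0.69, Ifih1, the gene of the RNA sensor MDA5, at 0.59 and Cmpk2 at 0.52. Of 8 interferon-induced GTPases, 7 were higher and 0 lower (median 0.27), led by Iigp1 at 0.61. With centred arrays the counts were 24 and 8 higher, and after quantile normalization 21 and 7, with 0 lower in both lists each time. Ifnb1, the interferon beta gene, had 312.5 and 262 at 4 h, 117 and 127 at 6 h, and 65.8 and 44.1 at 8 h of Lps, against 296.5 and 303, 216 and 246, and 68.3 and 57.9 at these hours of Cpg. The difference of Ifnb1 was -0.40 ± 0.14, with an interval from -0.72 to -0.08, and did not pass the test (adjusted p = 0.0556 in limma). Earlier, at 2 h, Ifnb1 had 845 and 854.5 with Lps, against 168 and 178 with Cpg, while its difference over 0.5 to 2 h, 0.94, did not pass the test (adjusted p = 0.234 in limma).

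Genes of interferon signalling had 7 of 16 measured members higher and 0 lower (median 0.15), among them the factors Irf1 at 0.50, Irf4 at 0.35, Irf2 at 0.26, Irf7 at 0.23 and Irf8 at 0.22. Of 14 Toll-like receptor and adaptor genes, 4 were higher and 5 lower (all items: 13.5% and 19.2%). Tlr3, itself a double-stranded RNA receptor gene, stood at 0.63, and 0.29 on a second probe set that did not pass the test. Tlr4 ranged from 125 to 181 with Lps, 162 to 242 with Cpg and 385 to 454 in unstimulated cells (-0.39). Tlr9 was at the floor on all 12 arrays, so its level could not be read. The TLR4 co-receptor gene Cd14 differed by -0.01, with an interval from -0.07 to 0.06.

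Costimulatory and maturation genes were higher with Lps by small amounts, in 9 of 17 measured members with 0 lower (median 0.17). Il15ra stood at 0.71, Cd80 at 0.55, Cd86 at 0.36, Icam1 at 0.35 and Cd40 at 0.26, none of them called. Cd86 ranged from 2403 to 2739 with Lps, 1811 to 2207 with Cpg and 558 to 673 in unstimulated cells, without overlap between ligands. For MHC class II presentation 1 of 12 genes, the protease gene Ctsl, was higher and 0 were lower (median -0.04). Of 11 genes of the immunoproteasome and MHC class I loading, 5 were higher, led by Tapbpl at 0.51, and H2-K1 was lower at -0.15.

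In the joint list of heat shock and oxidative stress genes, more members were lower than higher with Lps. Of its 14 measured members, 8 were lower with Lps and 3 higher at adjusted p under 0.05, with a median of -0.19. Over all items, 19.2% were lower and 13.5% higher, to be set beside each count of this paragraph. The lower list members included Gclm at -0.90 and Gclc at -0.62, the subunit genes of the first enzyme of glutathione synthesis, Hmox1, the heme oxygenase gene, at -0.81, Srxn1 at -0.60 and the quinone reductase gene Nqo1 at -0.53, and the heat shock genes Hsph1 at -0.36 and Hspe1 at -0.18. The higher ones were Mt1 at 0.24, Dnajb1 at 0.20 and Dnaja1 at 0.16. Of 11 sterol and fatty acid synthesis genes, 4 were lower (Fasn at -0.42, Sqle at -0.37, Fdps at -0.36 and Srebf2 at -0.18) and 0 higher. Of 22 amino acid and unfolded protein stress genes, 4 were lower and 3 higher, near the shares over all items. The lowest was Asns, the asparagine synthetase gene, at -0.70. Among 17 glycolysis and hypoxia genes, 4 were higher, led by Hk1 at 0.75, and 2 lower. Cell cycle genes gave 2 higher and 6 lower of 19, a count that became 2 and 2 both with centred arrays and after quantile normalization.

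**Figure D3:**
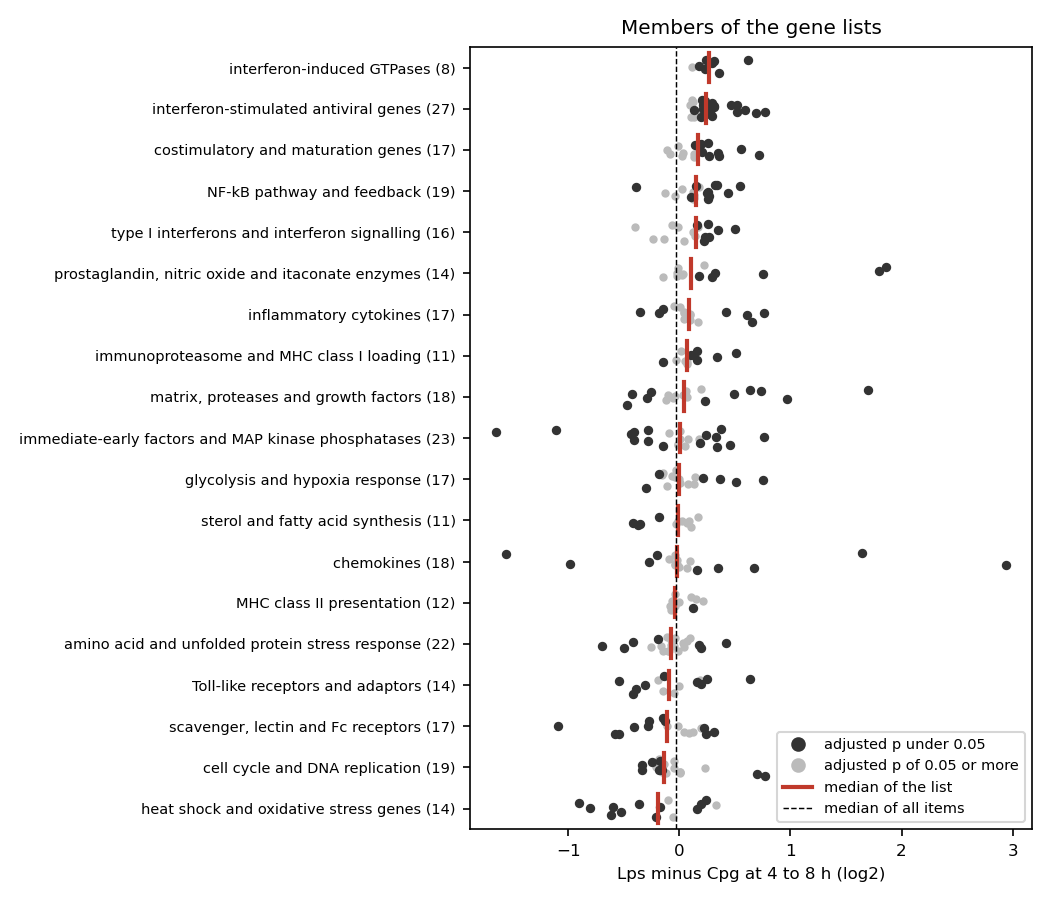
Lps minus Cpg at 4 to 8 h (log2) for the measured members of each gene list, 1 point per gene and the number of members in brackets. Red bars mark each list's median, from 0.27 for interferon-induced GTPases to -0.19 for heat shock and oxidative stress genes, and the dashed line marks the median of all items, -0.03.

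The difference changed with the hour for a few genes. A test of the change over 4, 6 and 8 h called 14 of 9808 items (0.143%), with adjusted p under 0.05 in limma and a range of at least 1 between the 3 differences, while 15.7% of items had an unadjusted p under 0.05. Plagl1 differed by 3.90, 3.11 and 1.83 (adjusted p = 0.0167), as its Lps arrays declined while its Cpg arrays stayed at the floor. Rgcc had 417 and 386 at 4 h, 148 and 186 at 6 h, and 65.9 and 68 at 8 h of Lps, against 65.4 and 55.3, 50.5 and 55.5, and 35.2 and 41.6 at these hours of Cpg, giving differences of 2.72, 1.63 and 0.79. Dab2, an endocytic adaptor gene, differed by 1.71, 1.34 and 0.44, with Lps arrays at 1201 and 1043 at 4 h and at 430 and 404 at 8 h, and a second probe set at 0.31 over the 3 hours, not called. Zfp36l2, a messenger RNA decay factor gene, turned sign, with differences of 0.92, -0.23 and -0.45. Its Lps arrays stayed between 216 and 285, while its Cpg arrays ran from 115 and 129.9 at 4 h to 376 and 378 at 8 h, and unstimulated cells had 999 to 1185.

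The number of these calls fell when single arrays were left out. Plagl1 was at 20 on all 6 Cpg arrays, so its differences did not change without a Cpg array. Its call was still lost without a Cpg array of 4 h or 8 h. Such a loss therefore does not show that a difference rested on the array left out. The count of 14 became 0 without either Cpg array of 4 h or either Cpg array of 8 h, 1 without the first Lps array of 4 h, 2 without the first Cpg array of 6 h, 3 and 4 without the second and the first Lps array of 8 h, 7 without the second Lps array of 4 h, and 9 with a pseudocount of 16.

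The same contrast was also read in arrays of other hours. At 0.5 to 2 h, with 6 arrays of each ligand, 0 of 9829 items were called in limma (0%). Of these items, 0 passed adjusted p under 0.05, while 1506 (15.3%) had an unadjusted p under 0.05. A single model of all 96 arrays called 2 higher and 6 lower. The early fit sought a common difference over its hours, so a difference confined to some hours counted as spread. The 0 calls thus do not show that the ligands were alike at each early hour. Il12b at 1 h had 193 and 206 with Lps, against 2732 and 2764 with Cpg. Cxcl10 at 2 h had 3664 and 3934 with Lps, against 340 and 345 with Cpg. Early hours were not tested singly. Of the 35 items higher with Lps at 4 to 8 h, 25 were measured in that window, 22 of them with a positive difference (median 0.31, against 0.00 for all items). Within it Plagl1 had 141 and 155 at 2 h of Lps against 20 and 20 of Cpg, and was at the floor before that hour with both. Plagl1 was thus measured early only through Lps, and its sign could only be positive. Items at the floor on all early arrays were left out, so 22 of 25 does not measure agreement between the windows.

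At 12 to 24 h, with 6 arrays of Lps and 4 of Cpg, 31 items were called higher with Lps (0.318%) and 24 lower (0.246%). These counts were 20 higher without the 16 h Cpg array and 16 lower without the 24 h Cpg array. Of the 35 items higher at 4 to 8 h, 32 were measured late, all 32 with a positive difference, and 8 were called (median 0.73, against 0.00 for all items). Some of these, such as Rnf225, Plod2 and Tnc, were at the floor on every late Cpg array and measured only through Lps. Their sign could only be positive, so the count of 32 does not measure agreement between the windows. Of the 14 lower ones all 14 were negative and 4 were called (median -0.58). Cxcl11 was still 2.31 ± 0.42 higher, Cst7 1.96 ± 0.10, Nos2 1.71 ± 0.13 and Cxcl9 1.62 ± 0.24, and Cxcl5 stood at -1.61 ± 0.10 and Dok2 at -1.20 ± 0.10, with adjusted p in limma of 0.00875 or less. Plagl1 was at the floor on every late array of both ligands, and Atm (0.38), Rgcc (0.12), Plod2 (0.14) and Tnc (0.12) were not called. Cxcl10 was 3.07 ± 0.47 higher late (adjusted p = 0.00493).

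**Figure D4:**
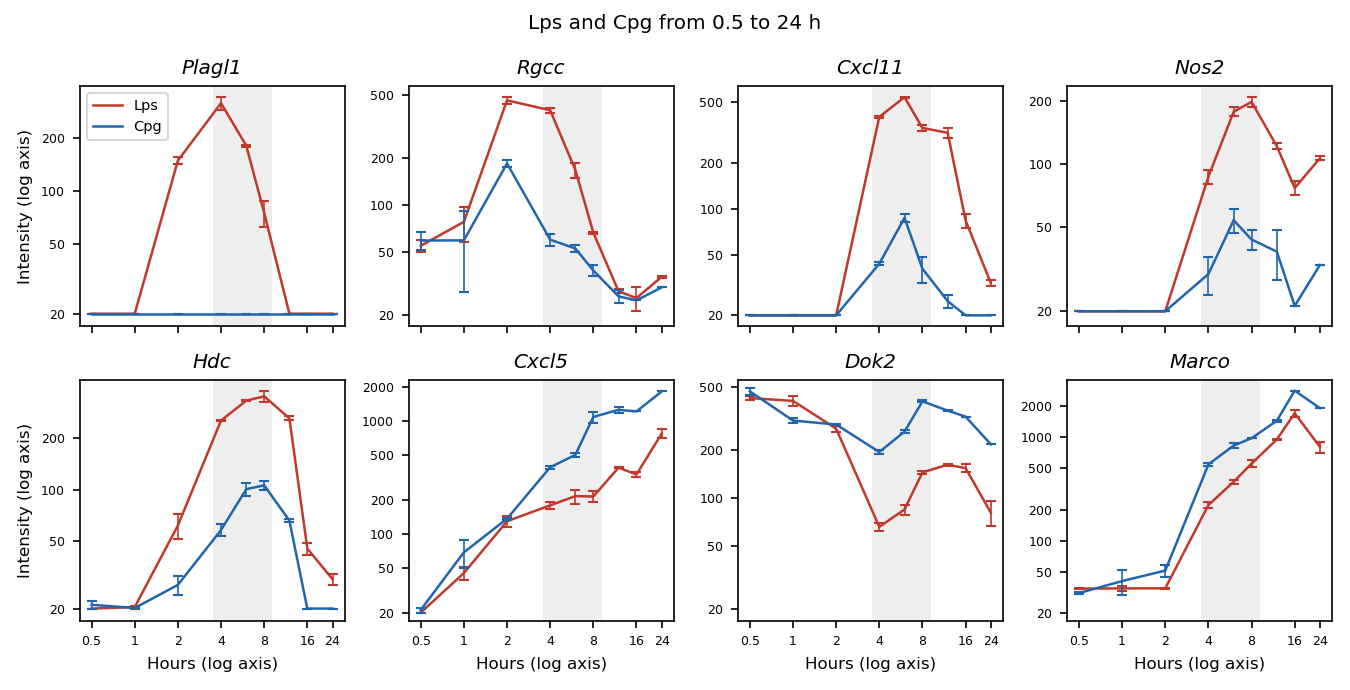
Intensity (log axis) of 8 genes from 0.5 to 24 h (log axis) with Lps (red) and Cpg (blue). Lines join the means, bars span the 2 arrays of a time (Cpg has 1 array at 16 h and 1 at 24 h) and grey marks 4 to 8 h. The Plagl1 line of Cpg stays at the floor of 20, and for Cxcl5 and Marco the means with Lps lie below those with Cpg from 4 h on.

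The called genes were then read between Pic and Pam at 4 to 8 h, which shares no array with Lps and Cpg. This comparison called 557 items higher with Pic (5.61%) and 312 lower (3.14%), with a median over all items of -0.06. Of the 35 items higher with Lps than with Cpg, 34 were measured here, of which 19 were called higher and 3 lower with Pic (median 1.51). Some, among them Plagl1, Cxcl11, Rnf225 and Plod2, were at the floor on all 6 Pam arrays and measured only through Pic. Their difference could only be positive, so these counts and the median do not measure agreement between the comparisons. Cxcl11 reached 5.53 ± 0.13 and Cxcl9 3.79 ± 0.18, Plagl1 averaged 291 ± 177 with Pic (SD, n = 6) and lay at the floor on all 6 Pam arrays, and Rgcc stood at 3.46 ± 0.10 and Atm at 2.73 ± 0.12. The highest adjusted p among these 5 genes was 1.21e-06 in limma. Others did not differ by the called size. Hdc stood at 0.28, Nos2 at 0.19 and Cst7 at 0.55, and Tnc was at the floor on all arrays of both.

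Ereg ran the opposite way, with mean intensities of 22.3 ± 3.05 with Pic and 161 ± 76.8 with Pam (SD, n = 6 each), a difference of -2.63 (SE 0.24, adjusted p = 3.93e-06 in limma). Of the 14 items lower with Lps, all were measured, of which 6 were called lower and 1 higher with Pic (median -0.66). Cxcl5 was at the floor on all 6 Pic arrays and averaged 616 ± 184 with Pam (SD, n = 6), and Marco averaged 31.5 ± 5.53 with Pic and 1309 ± 418 with Pam. The sign of Cxcl5 could thus only be negative. The 1 called higher was Fos, at 3.23 ± 0.15, with means of 305 ± 80.6 with Pic and 30.9 ± 5.07 with Pam (SD, n = 6 each). Across 9642 items measured in both comparisons Pearson's r was 0.442 and Spearman's rho 0.442, a description over items that are not independent and share their probes.

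**Figure D5:**
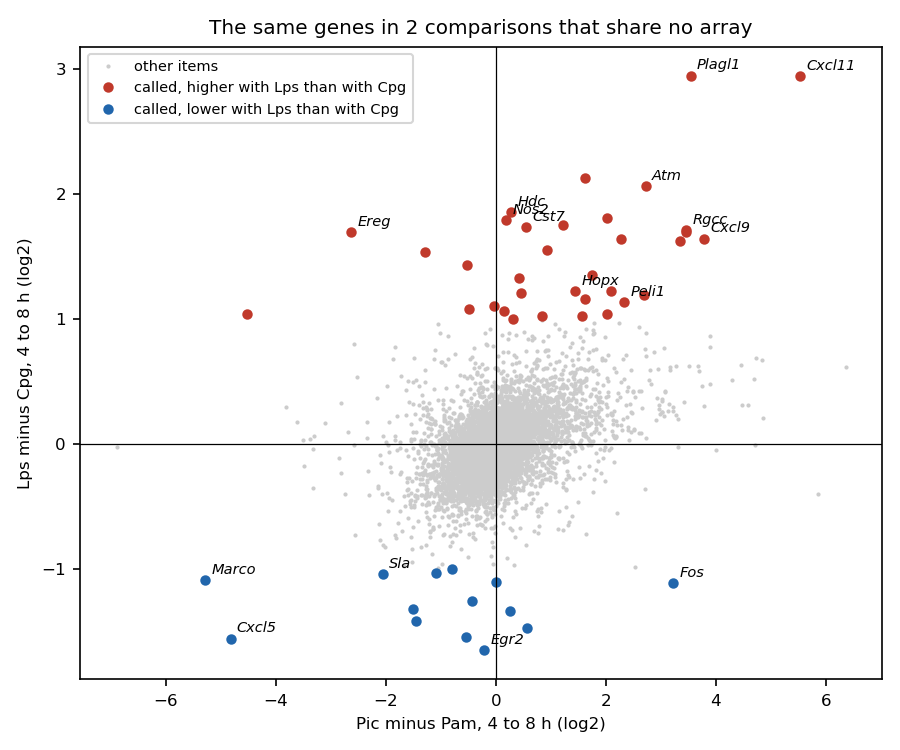
Lps minus Cpg (vertical axis, log2) against Pic minus Pam (horizontal axis, log2), both at 4 to 8 h, 1 point per item measured in both. Most items called higher with Lps (red) lie right of 0, with Ereg among the exceptions, and of those called lower (blue) Cxcl5 and Marco lie far left and Fos right.

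Against the 3 unstimulated arrays of the same hours, each called gene was placed by ligand. These comparisons share arrays with each other and with Lps minus Cpg, so their overlap is no result. Lps had 762 items higher (7.61%) and 907 lower (9.05%), and Cpg 576 higher (5.75%) and 621 lower (6.2%), which with centred arrays became 951 and 560 for Lps and 709 and 414 for Cpg. Of the 35 items higher with Lps than with Cpg, 14 were called above unstimulated cells with both ligands, among them Cxcl11, Cxcl9, Hdc, Nos2, Cst7, Sdc4 and Peli1. For 18, among them Plagl1, Atm, Ptch1, Ereg, Plod2 and Tnc, Lps was called above unstimulated cells and Cpg was not called. Not called did not always mean unchanged. Cpg minus unstimulated stood at -0.85 for Atm, 0.66 for Plod2 and 0.49 for Ereg, each with adjusted p under 0.05 in limma. Of the 14 lower items, Cxcl5 and Marco were above unstimulated cells with both ligands, Cebpa, Egr2, Fos and the small GTPase gene Rab7b below with both, and 5, among them Dok2 and Nfam1, were called below with Lps and not called with Cpg. For Ankrd24 and Gpr31b, Cpg was called above unstimulated cells and Lps was not called.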

How the data were processed

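Total RNA of mouse dendritic cells went, biotin-labelled, onto Affymetrix mouse arrays of 1 colour, per the labels' protocols. The deposited table holds intensities made with RMA, per the submitters' processing notes, with version and genome build not given in the sources used here. That they are on a linear scale with a floor of 20 was read from the values. On these 15 arrays 33.3% to 34.6% of probe sets stood at the floor, which limits what dim genes can show, and the number of arrays limits precision.

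Groups come from the sample titles. The platform table gave 1 gene symbol for 15044 of 18858 probe sets, several for 257 and none for 3557. After removal of 4409 probe sets that no array had above 20, each gene was read from its probe set with the highest mean over the 96 arrays, and unnamed probe sets were kept singly, giving 10543 items. Items at the floor on all arrays of a comparison were not tested. Differences were fitted on log2(intensity + 1) with time as a block in limma 3.58.1 under R 4.3.3, two-sided, with Benjamini-Hochberg adjustment over all items tested. Intervals are 95% and unadjusted. Lps minus Cpg had 8 residual degrees of freedom. The change over time was a moderated F test on 6 group means. The comparisons with unstimulated cells were fitted over 15 arrays. Where a group was at the floor throughout, a fold is a bound, the geometric mean of the other group over 20. Motifs were searched as exact letters on both strands of RefSeq promoters. The fit was tested on simulated data.

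Genes named are the 12 largest called differences each way without overlap between arrays (6 were lower), the 4 widest changes over time, up to 3 called members each way per gene list, and a panel. The comparison, lists and panel were chosen with earlier results of these data known. Alternatives were another pseudocount, filters, normalizations, models, a replicate block, single hours left out and each array left out.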

Additional observations from a re-analysis of the deposited data

Results flagged for a closer look

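The test of change in the Lps minus Cpg difference over 4, 6 and 8 h called 14 items. Only the 4 genes among them that were named by rule are given here. The widest gap between the differences of 2 hours was 2.07 log2 units for Plagl1, 1.93 for Rgcc, 1.38 for Zfp36l2 and 1.27 for Dab2, each with adjusted p = 0.0167 in limma. Each ligand had 2 arrays an hour, so no array could be tested against others of its own group.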

How the results depend on the processing

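Of the 49 calls between Lps and Cpg, the counts of 35 higher and 14 lower stayed at 35 and 14 with the replicate number as a block, ran from 33 to 36 and from 14 to 16 with each array left out, and were 27 and 8 with a pseudocount of 16. The labels do not say whether these numbers pair the samples. Deviations of same-numbered Lps and Cpg arrays correlated at 0.132, -0.0875 and 0.0123 at 4, 6 and 8 h, which cannot settle it. Testing every probe set by itself gave 44 and 17. At adjusted p under 0.05 with no limit on size, the counts of 1325 and 1882 ran from 1147 to 1298 and from 1580 to 1884 with an array left out, and the lower one was 1146 without 4 h and 1182 without 8 h.

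The early counts of 0 and 0 stayed at 0 with any array left out, and were 2 and 6 in a single model of all 96 arrays. The late counts ran from 20 to 37 and from 16 to 27 and were 18 and 14 with a pseudocount of 16. Pic minus Pam ran from 546 to 578 and from 300 to 345. Against unstimulated cells, Lps ran from 727 to 777 and from 826 to 978, with 560 lower when centred, and Cpg from 538 to 612 and from 548 to 696. No paired analysis was possible for these because each hour had 1 unstimulated array. The count of changes over time ran from 0 to 13 with an array left out and was 9 with a pseudocount of 16. The cause of these shifts was not tested. None of the called differences checked gene by gene (those of the genes named by rule) changed sign. The differences of Zfp36l2 (-0.34 to 0.35), Cxcl1 (-0.05 to 0.02), Cd14 (-0.02 to 0.04), Egr1 (-0.01 to 0.05) and Il10 (-0.04 to 0.05), none of them called, crossed 0. Of the genes named by rule, those that lost the call under some setting were Cebpa, Fos (with a pseudocount of 16 and without 6 h), Nfam1 (with a pseudocount of 16 and without 8 h), Dab2 (0.89 without 4 h) and Marco (-0.99 without 4 h). The other calls lost with a pseudocount of 16 are of items outside that rule, which were not followed one by one. Genes near the floor limit the sizes that can be read, and 2 arrays an hour limit the test over time.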
